A study of Homo sapiens with 12 samples.

Results

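The genes described here are 10 that carry glucose to lactate: SLC2A1, HK2, GPI, PFKP, ALDOA, GAPDH, PGK1, ENO1, PKM and LDHA. They were chosen by name, and each symbol matched 1 of the 60649 gene identifiers in the count tables. All 10 passed the filter on low counts, as did 16683 genes in all. RNA was sequenced from spheroids of SBC3, an established human small cell lung cancer line, with 3 libraries in each of 4 groups. The control group received no named drug. A second group received teriflunomide, an inhibitor of the pyrimidine synthesis enzyme DHODH, the third received lurbinectedin, a DNA-binding drug that blocks transcription, and the fourth received both, called the combination below. All 12 libraries come from the same line, and the labels give neither doses nor exposure times. The study asks how teriflunomide acts together with chemotherapy in this cancer, with mitochondrial fragmentation as its process of interest. Nothing in the labels says that the 3 libraries of a group came from separate cultures, so p-values measure only the spread between these libraries, which may be technical.

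Glycolysis splits glucose into pyruvate in the cytosol and yields ATP without oxygen. Glucose enters through transporters such as GLUT1 and is trapped by hexokinase, an investment phase spends ATP to make triose phosphates, and a payoff phase recovers ATP and leaves pyruvate, which lactate dehydrogenase can reduce to lactate to restore NAD+. Tumour cells are known for high glycolytic flux, and in spheroids, where oxygen falls towards the centre, many of these genes are classical targets of the hypoxia-inducible factors, which bind the ACGTG core of the hypoxia response element. DHODH, the target of teriflunomide, sits in the inner mitochondrial membrane and passes electrons to ubiquinone, so it is tied to respiration.

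As the count tables give them in hg38, the transporter gene is SLC2A1 (ENSG00000117394.24, chromosome 1, 42925353 to 42958893, minus strand), and hexokinase 2 is HK2 (ENSG00000159399.10, chromosome 2, 74834127 to 74893359, plus strand). The investment phase is covered by GPI (ENSG00000105220.17, chromosome 19, 34359480 to 34402413, plus strand), by PFKP (ENSG00000067057.18, chromosome 10, 3066333 to 3137718, plus strand) and by ALDOA (ENSG00000149925.22, chromosome 16, 30064164 to 30070457, plus strand). The payoff phase is covered by GAPDH (ENSG00000111640.15, chromosome 12, 6534512 to 6538374, plus strand), PGK1 (ENSG00000102144.15, chromosome X, 77910739 to 78129295, plus strand), ENO1 (ENSG00000074800.16, chromosome 1, 8861000 to 8879190, minus strand) and PKM (ENSG00000067225.19, chromosome 15, 72199029 to 72231822, minus strand). Lactate dehydrogenase A is LDHA (ENSG00000134333.14, chromosome 11, 18394560 to 18408425, plus strand). A count sums the reads on all exons of a gene, untranslated regions included.

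Total counts ran from 23206414 to 33222162 per library. Teriflunomide replicate 3 and combination replicate 2 stood apart by the share of counts on the mitochondrial genome, 22.6% and 24.9%. That share was 6.26% to 7.17% in control, 8.42% and 8.43% in the other teriflunomide libraries, 13.8% to 17.05% under lurbinectedin, and 14.6% and 13.1% in the other combination libraries. It therefore moved with treatment as well as with single libraries. With the genes of the mitochondrial genome left out before scaling, the same members were called in each of the 6 contrasts below, and counts of members called without both libraries are given beside the comparisons in which they change. Of 12 neuroendocrine markers, 4 reached 1 CPM (counts divided by effective library size and put on a shared scale) in control, among them SYP at 16.8 and NEUROD1 at 4.03. INSM1, UCHL1 and GRP, which also define neuroendocrine cells, had 0 counts in all 12 libraries. YAP1, a marker of non-neuroendocrine small cell lung cancer, stood at 246 CPM in control, 305 under teriflunomide, 64.9 under lurbinectedin and 97.2 in the combination. The collagen genes COL1A1 and COL1A2 reached 266 and 270 CPM in control, while the fibroblast markers DCN and LUM had 1 and 0 counts. The summed fibroblast list ranged from 520 to 549.9 CPM in control, 466 to 485 under teriflunomide, 187 to 221 under lurbinectedin and 198 to 227 in the combination. The summed non-neuroendocrine list ranged from 351 to 374, 422 to 496, 166 to 193 and 199 to 264 CPM in the same groups, and the summed neuroendocrine list from 25.2 to 26.8, 24.5 to 25.6, 42.6 to 45.6 and 43.9 to 50.5 CPM. These sums moved with lurbinectedin, but not every marker followed its sum. AXL, on the non-neuroendocrine list, rose from 13.3 CPM in control to 43.8 under lurbinectedin, while YAP1, REST and VIM fell. NEUROD1 fell from 4.03 to 1.62 CPM, while SYP rose from 16.8 to 30.9 and CHGB from 3.01 to 8.72. The part of these sums in the results on the 10 genes was not tested. In bulk RNA, fewer cells that express a gene and less of its RNA per cell cannot be told apart.

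A promoter window is shown for HK2, PGK1 and LDHA, as examples with more than 1 match to the core of the hypoxia response element, and for SLC2A1 as an example with none. In RefSeq (GRCh38.p14), the motif ACGTG was searched on both strands in windows of 250 bases, each lying before 1 listed start. It was present in 7 of the 10 genes and in 10 of their 17 windows. Over all genes of that table it was present in 21.7%, and over all windows in 18.5%. Any ACGTG within CACGTG, the E-box read by MYC and related factors, was counted once as both. ENO1, PKM and SLC2A1 held no match in the window searched. Not every start was covered: for GPI, PFKP, GAPDH and PKM no window lies directly before the start of the gene in RefSeq. GPI begins at 34359718 there, and its window is 34364742 to 34364991. In the gene models used for counting, all 250 bases of the windows of ENO1, PKM and GPI are exon of the same gene. The capitals below mark each ACGTG, its reverse complement CACGT or the overlapping CACGTG. In the first of its windows, the one shown, HK2 held a pair of matches, starting 229 and 48 bases before the start (chr2:74833877-74834126, plus strand). Its other window held 2 more, both E-boxes, at 194 and 149 bases (chr2:74834920-74835169, plus strand). PGK1 also held a pair, at 202 and 183 bases (chrX:78103998-78104247, plus strand). LDHA held 3 in the window shown, at 185, 87 and 73 bases, of which the first 2 are E-boxes (chr11:18394313-18394562, plus strand), and 0 in its other window. ALDOA, called higher with lurbinectedin below, held 1 match in each of its 3 windows, and GAPDH, not called with that drug, held 1 in its window. SLC2A1 is shown as the window without a match (chr1:42958869-42959118, minus strand). A share of 2.61% of all windows held 2 or more matches. A match describes letters only, and binding was not measured here.
HK2: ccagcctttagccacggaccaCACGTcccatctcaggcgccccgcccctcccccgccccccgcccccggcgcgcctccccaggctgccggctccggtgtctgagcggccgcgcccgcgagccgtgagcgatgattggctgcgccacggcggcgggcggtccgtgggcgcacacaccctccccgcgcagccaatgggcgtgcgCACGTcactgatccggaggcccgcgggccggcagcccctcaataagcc
PGK1: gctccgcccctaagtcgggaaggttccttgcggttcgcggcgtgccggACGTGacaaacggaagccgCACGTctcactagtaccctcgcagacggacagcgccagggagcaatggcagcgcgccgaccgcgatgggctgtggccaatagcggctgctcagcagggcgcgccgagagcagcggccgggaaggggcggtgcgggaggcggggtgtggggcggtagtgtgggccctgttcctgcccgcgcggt
LDHA: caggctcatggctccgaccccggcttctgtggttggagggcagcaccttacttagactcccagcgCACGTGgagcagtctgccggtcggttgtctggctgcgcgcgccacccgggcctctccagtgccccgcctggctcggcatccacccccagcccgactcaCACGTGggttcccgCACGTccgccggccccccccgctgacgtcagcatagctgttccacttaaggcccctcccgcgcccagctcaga
SLC2A1: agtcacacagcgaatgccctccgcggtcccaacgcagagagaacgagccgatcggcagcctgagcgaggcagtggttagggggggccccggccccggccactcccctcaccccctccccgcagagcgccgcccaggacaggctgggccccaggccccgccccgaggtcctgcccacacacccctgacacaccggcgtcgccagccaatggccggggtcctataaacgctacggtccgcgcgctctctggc

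In control, the 10 genes together took 0.961% ± 0.016 (SD, n = 3) of all counts on nuclear genes. The order of their levels can be read only per length, as CPM per kb of exon. GAPDH led in control at 925 ± 12.6, followed by ENO1 at 351 ± 4.95, LDHA at 245 ± 10.4, PKM at 151 ± 1.62 and PGK1 at 98.9 ± 3.58. The genes of uptake and investment were lower, with GPI at 37.1 ± 1.02, HK2 at 32.6 ± 0.51, SLC2A1 at 22.9 ± 0.25 and PFKP at 13.4 ± 0.12. Neighbours in this order were separated by more than their spread over libraries. That spread does not cover the choice of length, here all annotated exons of a gene, from 2396 bases for GAPDH to 10680 for GPI. The order with lengths of single transcripts was not computed. ALDOA came last at 5.25 ± 0.29, but 54.2% of its exon bases are shared with other annotated genes, chiefly ENSG00000285043. Reads on shared bases are ambiguous under gene-wise counting, so its level is uncertain and its 8110 counts over 12 libraries may hold only part of its reads. GAPDH shares 17.6% of its exon bases, and no other gene of the 10 more than 5.07%. Pseudogenes named after a member held at most 0.119% of that member's counts, the highest share being that of the 65 GAPDH pseudogenes.

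**Figure D1:**
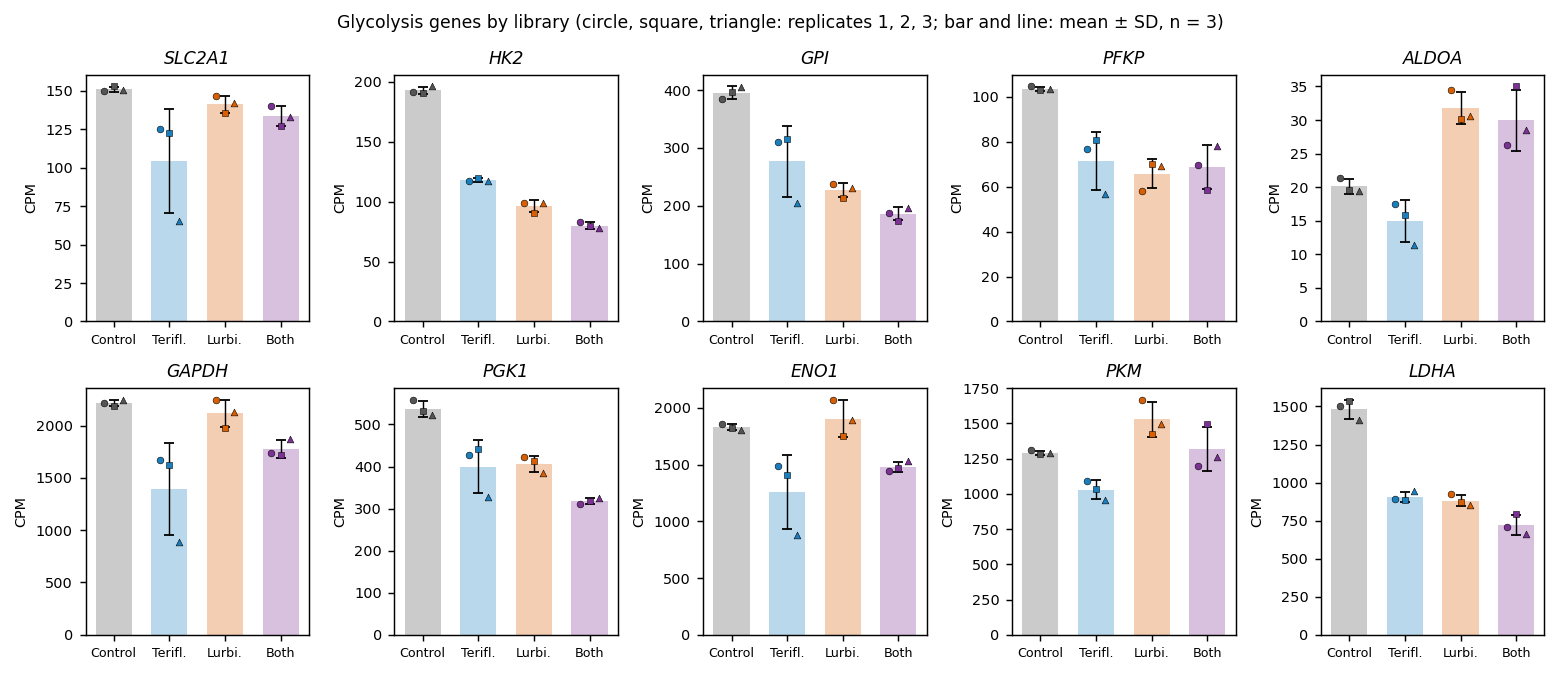
Level of each of the 10 genes in CPM in every library; bars are group means, lines ± SD (n = 3), and the groups from left to right are control, teriflunomide (Terifl.), lurbinectedin (Lurbi.) and the combination (Both). All 3 teriflunomide libraries lie below all control libraries for each gene, teriflunomide replicate 3 (triangle) is the lowest of its group for 8 genes, and ALDOA is the gene with every lurbinectedin and combination library above every control library. The share of all genes with such separate groups was not computed.

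Teriflunomide alone lowered 6 of the 10 genes: HK2, GPI, PFKP, GAPDH, PGK1 and LDHA. None was called higher. Of all genes tested, 2.13% were called lower, 3.88% higher and 6.01% in either direction in this comparison (edgeR quasi-likelihood test, Benjamini-Hochberg adjusted p under 0.05). All 10 estimates were below 0, from -0.33 for PKM to -0.71 for LDHA on the log2 scale, with a median of -0.54 against 0.03 over all genes tested. For all 10, each teriflunomide library was below each control library, but the share of all genes separated in this way was not computed. The genes' joint share of nuclear counts was 0.740%, 0.738% and 0.509% in the 3 teriflunomide libraries, against 0.947% to 0.979% in control.

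SLC2A1 encodes GLUT1, the basal glucose transporter. It measured 149.9, 153 and 150.7 CPM in control and 125, 123 and 65.3 CPM in teriflunomide replicates 1, 2 and 3. The third library was far below the other two, and the fall of 0.53 ± 0.18 (SE) on the log2 scale did not pass the test (adjusted p = 0.0922). HK2, the hexokinase isoform that binds the outer mitochondrial membrane and phosphorylates glucose, measured 191, 191 and 196 CPM in control and 117, 119.8 and 118 under teriflunomide. Its teriflunomide libraries were tightly grouped, with no drop in replicate 3. HK2 fell by 0.71 ± 0.08 on the log2 scale (adjusted p = 0.000545). The first of its promoter windows is printed above.

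Among the genes of the investment phase, GPI, which turns glucose 6-phosphate into fructose 6-phosphate, measured 385, 397 and 406 CPM in control and 309.8, 315 and 206 under teriflunomide. The fall was largest in replicate 3 and present in each library (log2 -0.52 ± 0.13, adjusted p = 0.0402). PFKP, the platelet isoform of phosphofructokinase, which makes fructose 1,6-bisphosphate in the committed step, measured 104.7, 103 and 103 CPM in control and 76.7, 80.6 and 56.9 under teriflunomide (log2 -0.54 ± 0.14, adjusted p = 0.0401). ALDOA, the aldolase that splits this sugar, measured 21.4, 19.5 and 19.4 CPM in control and 17.5, 15.8 and 11.4 under teriflunomide. Its groups were separate but close, and its difference of -0.43 ± 0.16 did not pass the test (adjusted p = 0.118).

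In the payoff phase, GAPDH, which makes the NADH of the pathway, measured 2215, 2189 and 2249 CPM in control and 1672, 1621 and 887 under teriflunomide. Replicate 3 was well below its group. GAPDH fell by 0.67 ± 0.18 (adjusted p = 0.0418). PGK1, the first enzyme to recover ATP, measured 559, 532 and 522 CPM in control and 428, 443 and 328 under teriflunomide (log2 -0.43 ± 0.11, adjusted p = 0.0344). ENO1, the enolase that makes phosphoenolpyruvate, measured 1857, 1822 and 1807 CPM in control and 1487, 1406 and 882 under teriflunomide. It too was lowest in replicate 3, and its difference of -0.54 ± 0.15 missed the threshold (adjusted p = 0.053). PKM, the pyruvate kinase that yields pyruvate and ATP, measured 1308, 1282 and 1289 CPM in control and 1093, 1038 and 959.7 under teriflunomide. It showed the smallest difference of the 10, -0.33 ± 0.10 (adjusted p = 0.0752).

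LDHA, the subunit of lactate dehydrogenase that favours lactate production, measured 1500, 1534 and 1412 CPM in control and 895, 882 and 943 under teriflunomide. As with HK2, replicate 3 did not stand below the other two. LDHA fell by 0.71 ± 0.09 on the log2 scale (adjusted p = 0.00111).

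HK2 and LDHA were called lower in 21 of 22 alternative settings, the exception being a test against a 1.5-fold change. The other 4 calls were weaker: leaving out any control library, any lurbinectedin library or combination replicate 1 left HK2 and LDHA as the only members called, as did scaling by library size only, the fit of only the groups compared and the replicate block. Those fits called from 1.26% to 4.91% of all genes in either direction. Without teriflunomide replicate 3 the estimates were smaller, with a median of -0.34, yet 8 members were called, while 9.11% of all genes were called in either direction. SLC2A1 at -0.29 (adjusted p = 0.0237) and ENO1 at -0.34 (adjusted p = 0.0161) were then called, and GAPDH stood at -0.43 (adjusted p = 0.00273). Without teriflunomide replicate 1 there were also 8, with a median of -0.64 and 7.44% of all genes called. Without combination replicate 2, where 6.74% of all genes were called, GAPDH was lost (adjusted p = 0.0512) and PKM gained. Without both libraries of high mitochondrial share there were 9, all but ALDOA, where 16.3% of all genes were called.

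**Figure D2:**
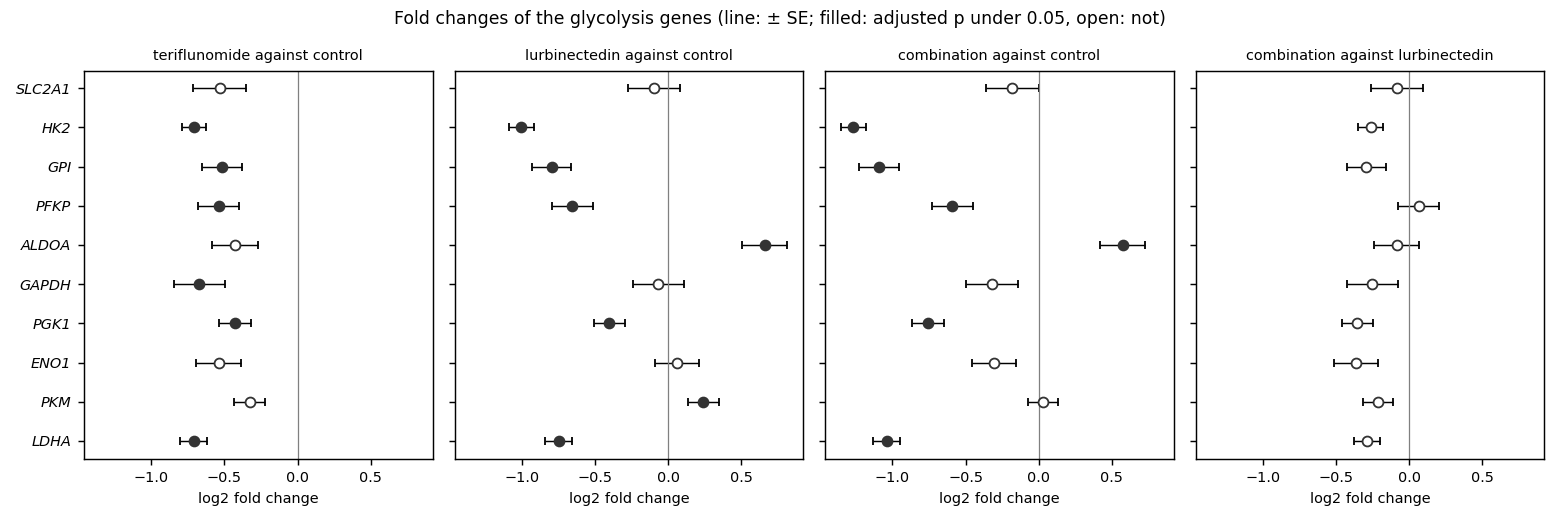
Log2 fold change of the 10 genes (points, line ± SE, n = 3 per group) for teriflunomide, lurbinectedin and the combination, each against control, and for the combination against lurbinectedin; filled points have an adjusted p under 0.05. All points of the teriflunomide panel lie left of 0, HK2, GPI, PFKP, PGK1 and LDHA are filled left of 0 in all 3 panels against control, and no point is filled in the last panel.

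Lurbinectedin alone lowered HK2, GPI, PFKP, PGK1 and LDHA and raised ALDOA and PKM, while SLC2A1, GAPDH and ENO1 were not called. The 5 lower and 2 higher members stand against 35.7% and 36% of all genes tested, and 7 of 10 called in either direction against 71.6%, so the number called was close to that of all genes. Members' estimates ran from -1.003 for HK2 to 0.66 for ALDOA, with a median of -0.25 against 0.05 for all genes. The joint share of nuclear counts was 0.814% ± 0.029 (n = 3), below each control library. CPM values are shares of a library, so a change in the total RNA of a cell is not seen in them. The control libraries are those of the preceding comparison, and the 2 sets of values are given side by side only.

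HK2 measured 99.2, 90.5 and 99.0 CPM in the 3 lurbinectedin libraries, about 49.9% of the control mean. The groups were far apart, and HK2 fell by 1.003 ± 0.08 on the log2 scale (adjusted p = 9.8e-08). GPI measured 238, 214 and 231 CPM, all far below control, and fell by 0.80 ± 0.14 (adjusted p = 0.00012). PFKP measured 58.2, 70.1 and 69.1 CPM and fell by 0.65 ± 0.14 (adjusted p = 0.000852). LDHA measured 922, 872 and 852 CPM, none of which overlapped control, and fell by 0.75 ± 0.09 (adjusted p = 4.78e-06). PGK1 measured 422, 413 and 386 CPM and fell by 0.40 ± 0.11 (adjusted p = 0.00401). HK2, GPI and LDHA were called in all 22 alternative settings, and PFKP and PGK1 in 21.

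The genes that did not fall include the most abundant ones. GAPDH measured 2244, 1979 and 2127 CPM, overlapping control, with a difference of -0.07 ± 0.18 (adjusted p = 0.745). ENO1 measured 2074, 1754 and 1893 CPM, on both sides of control, with a difference of 0.06 ± 0.15 (adjusted p = 0.734) that became -0.18 when libraries were scaled by size only. SLC2A1 measured 147, 136 and 142 CPM, each a little below control, with a difference of -0.10 ± 0.18 (adjusted p = 0.641). It was called lower in 1 of 22 alternatives, the fit of only the groups compared (adjusted p = 0.0442), where 83.8% of all genes were called. These 3 genes were thus within or near the control range.

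ALDOA measured 34.5, 30.1 and 30.6 CPM under lurbinectedin, all above the 19.4 to 21.4 of control. It rose by 0.66 ± 0.16 (adjusted p = 0.00174) as counted, with the limit on its shared exons given above. PKM measured 1669, 1423 and 1493 CPM, all above control, and its rise of 0.24 ± 0.10 was at the threshold (adjusted p = 0.0491). The PKM call held in 7 of 22 alternatives. It was lost with the size factors of DESeq2 (0.22, adjusted p = 0.0771), and with library size as the only scaling its estimate was 0.0050 (adjusted p = 0.972). Leaving out any control or any lurbinectedin library, teriflunomide replicate 1 or 2, or combination replicate 1 also ended it. Under library-size scaling ALDOA stood at 0.42 (adjusted p = 0.0716), so no member was then called higher, the same 5 were called lower, and the median over all genes moved from 0.05 to -0.18. That scaling also moved the share of higher calls among all calls from 50.2% to 39.2%.

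The combination against control called the same 5 genes lower (HK2, GPI, PFKP, PGK1 and LDHA) and ALDOA higher, against 34.4% lower, 34.1% higher and 68.4% in either direction among all genes tested. The median of the 10 was -0.45 against 0.04 for all genes, and the joint share of nuclear counts was 0.717% ± 0.039 (n = 3). HK2, GPI, PGK1 and LDHA had their lowest group mean here. HK2 measured 83.0, 79.7 and 77.7 CPM, a fall of 1.27 ± 0.08 (adjusted p = 1.26e-08). GPI measured 188, 174 and 196 CPM, a fall of 1.09 ± 0.14 (adjusted p = 7.69e-06). LDHA measured 706, 794 and 665 CPM, a fall of 1.04 ± 0.09 (adjusted p = 2.26e-07). Each of the 3 genes thus stood between 41.5% and 48.7% of its control mean. PGK1 measured 312, 318 and 325 CPM, a fall of 0.76 ± 0.11 (adjusted p = 2.58e-05). PFKP measured 69.7, 58.7 and 78.1 CPM, a fall of 0.59 ± 0.14 (adjusted p = 0.00201). Its libraries thus overlapped those of either drug alone.

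ALDOA measured 26.2, 35.0 and 28.5 CPM in the combination, all above control, a rise of 0.57 ± 0.16 (adjusted p = 0.00485) that was not called when libraries were scaled by size only (0.39, adjusted p = 0.0971). GAPDH measured 1737, 1719 and 1875 CPM and ENO1 measured 1443, 1466 and 1531 CPM. Both were below every control library and missed the threshold (adjusted p = 0.122 and 0.0893). Without teriflunomide replicate 3, which belongs to neither group but enters the shared estimate of the spread, both were called lower, at -0.33 (adjusted p = 0.000441) and -0.31 (adjusted p = 0.000915), as was SLC2A1 at -0.19 (adjusted p = 0.017). Of all genes, 74.9% were called in either direction in that fit. Without both libraries of high mitochondrial share the same 3 genes joined the 5, so that 8 were called lower, with 74.2% of all genes called in either direction. GAPDH and ENO1, but not SLC2A1, were also called lower in the fit of only the groups compared and in the fit with no filter. Those fits called 73.9% and 34.6% of all genes. SLC2A1 measured 140, 127 and 133 CPM, below control in each library, with a difference of -0.18 ± 0.18 (adjusted p = 0.387) in the fit of all libraries. PKM measured 1197, 1496 and 1262 CPM. Its highest value came from replicate 2, which has the high mitochondrial share, and its groups overlapped (log2 0.03 ± 0.10, adjusted p = 0.821).

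Whether the combination differed from lurbinectedin alone was tested directly. No member was called, and 0% of all genes were. The smallest adjusted p over all genes was 0.145, although 2599 genes had an unadjusted p under 0.05. For 9 of the 10 genes the estimate was below 0, with a median of -0.26. HK2, GPI, GAPDH, PGK1, ENO1 and LDHA had every combination library below every lurbinectedin library. How many of all genes did so was not counted. The estimates were -0.37 ± 0.15 for ENO1, -0.35 ± 0.11 for PGK1, -0.29 ± 0.13 for GPI, -0.29 ± 0.09 for LDHA, -0.26 ± 0.08 for HK2 and -0.25 ± 0.18 for GAPDH, with adjusted p from 0.176 to 0.508. DESeq2 called HK2 and LDHA lower, and it called 3.5% of all genes. Without teriflunomide replicate 3 the same 6 genes were called lower, with 12.1% of all genes called. Without both libraries of high mitochondrial share PKM joined them, at -0.31 (adjusted p = 0.00434), and 21.5% of all genes were called. The fit of only the groups compared, which holds no teriflunomide library, called 0 members and 0.612% of all genes, and the fit without combination replicate 2 called 0 members and 1.52%.

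Against teriflunomide alone, the combination had 4 members called lower (HK2, GPI, PGK1 and LDHA) and 2 higher (ALDOA and PKM), where 35.8% of all genes were called lower, 35.2% higher and 70.9% in either direction. GPI differed by -0.57 ± 0.14 (adjusted p = 0.00172), HK2 by -0.56 ± 0.08 (adjusted p = 3.37e-05), PGK1 by -0.33 ± 0.11 (adjusted p = 0.0135) and LDHA by -0.33 ± 0.09 (adjusted p = 0.00504). The combination libraries lay below all teriflunomide libraries for these 4 genes, a separation that was not counted over all genes. ALDOA was 2.001-fold higher in the combination than under teriflunomide (log2 1.001 ± 0.16, adjusted p = 6.03e-05), and PKM differed by 0.36 ± 0.10 (adjusted p = 0.007). With library size as the only scaling PKM was no longer called, at 0.25 (adjusted p = 0.0815). In the fit of only the groups compared PGK1 (adjusted p = 0.0849), LDHA (adjusted p = 0.0634) and PKM (adjusted p = 0.0539) were not called, which left HK2 and GPI lower and ALDOA higher. That fit called 62.7% of all genes. PGK1 was also lost without teriflunomide replicate 2 (adjusted p = 0.0609) and without combination replicate 1 (adjusted p = 0.053).

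The interaction asks whether teriflunomide changed a gene differently in the presence of lurbinectedin than in its absence. No member was called, where 0.258% of all genes were (0.036% higher and 0.222% lower). All 10 estimates were above 0, with a median of 0.38 against 0.02 for all genes. That is, the estimated fall with teriflunomide was smaller in the presence of lurbinectedin, or for PFKP absent (0.06 for the combination against lurbinectedin). PFKP had the highest estimate, 0.60 ± 0.20 (adjusted p = 0.308), and HK2 the lowest adjusted p of the 10, at 0.44 ± 0.12 (adjusted p = 0.184). Without teriflunomide replicate 3 HK2 (0.45, adjusted p = 0.0251) and LDHA (0.46, adjusted p = 0.0375) were called, with 3.61% of all genes, while PGK1 and ENO1 turned to -0.04 and -0.02. DESeq2 also called HK2 and LDHA, with 1.53% of all genes. Most of the 10 estimates were smaller without that library, and their median was then 0.19. Without both libraries of high mitochondrial share HK2, PFKP and LDHA were called, with 10.9% of all genes.

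Several steps of glycolysis can be run by more than 1 isoenzyme, and the share of an isoenzyme within its step does not depend on how a library is scaled. Shares were computed from counts per kb of exon. HK2 made up 64.2%, 63.8% and 65.2% of HK1 plus HK2 in control, 49.2%, 49.1% and 43.4% under teriflunomide, 76.0%, 75.0% and 74.3% under lurbinectedin, and 64.6%, 70.3% and 64.7% in the combination. The share was thus lower than control in every teriflunomide library and higher in every lurbinectedin library, although HK2 itself was lower under both drugs. HK1, the ubiquitous hexokinase, stood at 113 ± 1.95 CPM in control, 141 ± 18.9 under teriflunomide (log2 0.31 ± 0.12, adjusted p = 0.14), 33.9 ± 2.24 under lurbinectedin and 43.1 ± 6.46 in the combination. It fell by 1.74 ± 0.13 with lurbinectedin (adjusted p = 3.3e-08), where HK2 fell by 1.003 ± 0.08.

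LDHA made up 89.9% ± 0.22 of LDHA plus LDHB in control, 88.1% ± 2.64 under teriflunomide, 85.3% ± 0.17 under lurbinectedin and 86.3% ± 2.03 in the combination. LDHB encodes the subunit that favours pyruvate, and 33.4% of its exon bases are shared with another gene. PFKP made up 25.3% ± 0.29 of the 3 phosphofructokinase genes in control and 19.4% ± 1.89 under lurbinectedin, where the liver isoform PFKL rose by 0.71 ± 0.19 (adjusted p = 0.00479) and the muscle isoform PFKM fell by 0.67 ± 0.13 (adjusted p = 0.000342). ENO1 remained the main enolase, at 97.5% ± 0.08 of ENO1 plus ENO2 in control and 94.4% ± 0.93 in the combination. ENO2, the neuronal enolase, rose by 0.85 ± 0.16 with lurbinectedin (adjusted p = 0.000249). SLC2A1 held 93.7% ± 0.19 of SLC2A1 plus SLC2A3 in control and 87.2% ± 4.02 under teriflunomide, where SLC2A3, the high-affinity transporter GLUT3, rose by 0.48 ± 0.12 (adjusted p = 0.0357). With 3 against 3 libraries the exact two-sided permutation test cannot go below p = 0.1. Of 24 share comparisons 15 had that p, which is 0.16 after Benjamini-Hochberg adjustment, so none passes.

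**Figure D3:**
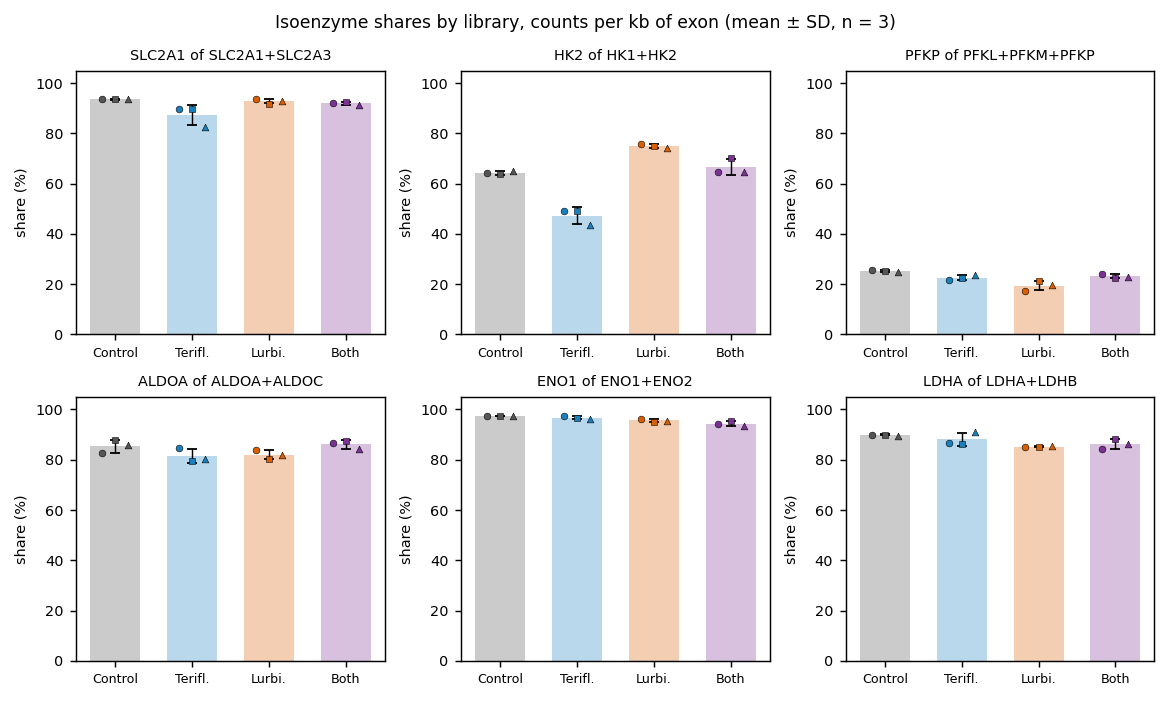
Share of each member within its isoenzyme group, in percent of counts per kb of exon, in every library (points) with the group mean (bar) and SD (line, n = 3); groups are control, teriflunomide (Terifl.), lurbinectedin (Lurbi.) and the combination (Both). The HK2 share is 64.4% in control, 47.3% under teriflunomide and 75.1% under lurbinectedin on average, while ENO1 and LDHA stay above 80% in each library.

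Under lurbinectedin, fold change went with genomic span over all nuclear genes tested. Cut into 5 equal bins by their spans in the count tables, they had a median from 0.69 in the shortest bin to -1.86 in the longest. The 10 genes were placed in these bins by their RefSeq spans, unless stated, and set against the median of the bin. LDHA spans 13.9 kb, in a bin with a median of 0.62, and stood at -0.75. GAPDH spans 3.86 kb, in the bin with a median of 0.69, and stood at -0.07. HK2 (59.2 kb), GPI (42.7 kb) and PFKP (69.3 kb) fall in the fourth bin, with a median of -0.36, and stood at -1.003, -0.80 and -0.65. PKM stood at 0.24 and ENO1 at 0.06, where the median of their bin was 0.28. PGK1 spans 25.0 kb in RefSeq but 219 kb in the count tables, whose model reaches into ATP7A. It stood at -0.40, below the 0.28 of its bin by RefSeq span and above the -1.86 of its bin by the tables' span. With RefSeq spans for the 10 genes only, 9 of the 10 were below the median of their bin, and ALDOA was the 1 above it. With the tables' spans PGK1 was above as well. ALDOA (0.66 against 0.62) and PKM (0.24 against 0.28) were close to the median. This is a description with no test.

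**Figure D4:**
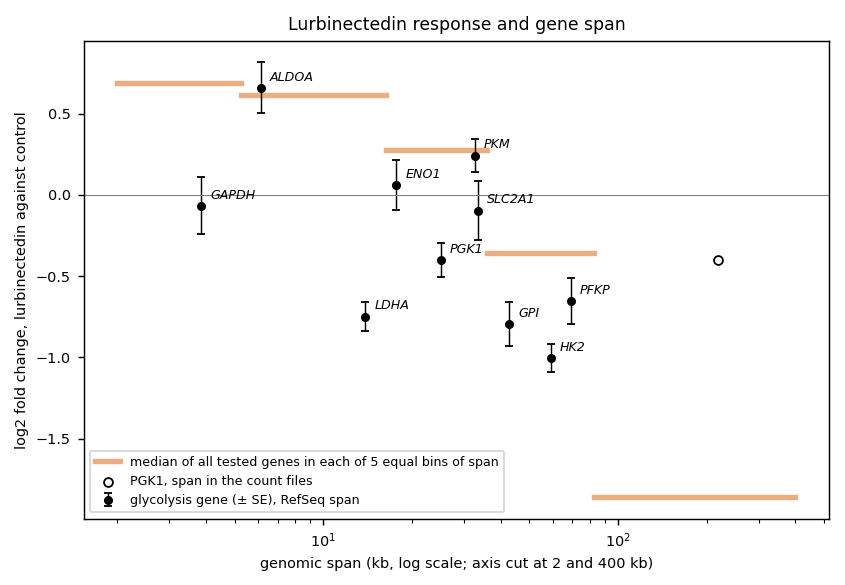
Log2 fold change with lurbinectedin against control (y axis, ± SE) by RefSeq genomic span in kb (x axis, log scale) for the 10 genes. Orange lines give the median of all tested genes in each of 5 equal bins of span in the count tables. The open circle is PGK1 at the span given in the count tables. LDHA at -0.75 and GAPDH at -0.07 lie below the medians of 0.62 and 0.69 of genes of like span, and ALDOA lies on the line of its bin.

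PGAM1 was the further enzyme of the pathway that teriflunomide lowered. Of 23 other glycolysis enzymes and isoenzymes, 11 passed the filter. Under teriflunomide 1 was called lower and 0 higher, against 2.13% and 3.88% of all genes, with 9 of 11 estimates below 0 and a median of -0.25. PGAM1 moves the phosphate of 3-phosphoglycerate and sits between PGK1 and ENO1. It measured 213, 206 and 204 CPM in control and 147, 137 and 98.2 under teriflunomide, a fall of 0.70 ± 0.13 (adjusted p = 0.00682). TPI1, the triose phosphate isomerase, measured 709, 701 and 691 CPM in control and 592, 571 and 349.9 under teriflunomide, separate from control but not called (log2 -0.47 ± 0.15, adjusted p = 0.0822). Both were lowest in replicate 3. Under lurbinectedin 4 of the 11 were called higher and 2 lower, against 36% and 35.7% of all genes, and neither PGAM1 (0.19 ± 0.13, adjusted p = 0.195) nor TPI1 (0.31 ± 0.15, adjusted p = 0.0871) was among them. In the combination 2 were called higher and 3 lower, against 34.1% and 34.4%.

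Among genes that control glycolysis or the use of its pyruvate by pyruvate dehydrogenase, lurbinectedin raised TIGAR, TXNIP, PDP1 and the 3 tested PFKFB genes and lowered PDK1. Of 15 listed, 11 were tested, and 7 were called higher and 2 lower, with a median of 0.61, against the 36% and 35.7% of all genes given above. TIGAR, a p53 target that lowers fructose 2,6-bisphosphate and so slows phosphofructokinase, measured 8.61, 8.19 and 7.92 CPM in control and 76.2, 78.8 and 72.9 under lurbinectedin. The groups were far apart, a 9.22-fold difference (log2 3.20 ± 0.24, adjusted p = 4.51e-08), with 19.4% of its exon bases shared with other genes. In the combination TIGAR ranged from 57.0 to 122 CPM, highest in replicate 2, and rose by 3.41 ± 0.25 (adjusted p = 3.32e-08). PFKFB2, PFKFB3 and PFKFB4 encode enzymes that can both make and break down fructose 2,6-bisphosphate, and are named here after their values were seen. PFKFB2 went from 15.6 ± 0.91 CPM in control to 25.2 ± 0.87 under lurbinectedin (log2 0.69 ± 0.12, adjusted p = 0.000174). PFKFB3 went from 45.7 ± 0.63 to 63.8 ± 2.41 CPM (log2 0.48 ± 0.13, adjusted p = 0.00491), and PFKFB4 from 14.4 ± 0.91 to 21.9 ± 0.90 CPM (log2 0.61 ± 0.16, adjusted p = 0.00422). With library size as the only scaling PFKFB3 (adjusted p = 0.301) and PFKFB4 (adjusted p = 0.183) were not called. TXNIP, which restrains glucose uptake, rose by 1.31 ± 0.12 with lurbinectedin (adjusted p = 4.2e-07) and by 1.32 ± 0.12 in the combination (adjusted p = 4.77e-07). PDK1, the kinase that inactivates pyruvate dehydrogenase, measured 73.6, 67.0 and 66.0 CPM in control and 16.9, 21.6 and 19.1 under lurbinectedin. It fell by 1.84 ± 0.13 (adjusted p = 2.02e-08), and by 1.79 ± 0.13 in the combination (adjusted p = 3.32e-08). PDP1, a phosphatase that reactivates it, rose by 1.11 ± 0.13 with lurbinectedin (adjusted p = 2.68e-06). Under teriflunomide, against 2.13% lower and 3.88% higher among all genes, 1 of the 11 was called lower and 0 higher. It was PFKFB3, at 33.5, 35.0 and 23.7 CPM, each below control (log2 -0.57 ± 0.13, adjusted p = 0.0249), a call lost without any 1 control library and with library-size scaling, the replicate block or only the groups compared. TIGAR (0.60 ± 0.24, adjusted p = 0.14), TXNIP (0.06 ± 0.12, adjusted p = 0.79) and PDK1 (-0.41 ± 0.12, adjusted p = 0.0695) were not called.

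Of the transporters of glucose and lactate, 10 of 16 were tested. Under teriflunomide 1 was called higher (SLC2A3, given above) and 1 lower, against 3.88% and 2.13% of all genes. SLC16A3, the lactate exporter MCT4 and a known hypoxia target, measured 139, 134 and 132 CPM in control and 85.1, 90.8 and 38.8 under teriflunomide. It was the transporter called lower there, by 0.91 ± 0.23 (adjusted p = 0.0325), with its lowest value in replicate 3, and it was not called under lurbinectedin (0.21 ± 0.22, adjusted p = 0.423). SLC16A1, which encodes MCT1, did not pass under teriflunomide (-0.09 ± 0.10, adjusted p = 0.631) and rose by 0.74 ± 0.10 with lurbinectedin (adjusted p = 2.13e-05). In all, 4 transporters were called higher and 3 lower with lurbinectedin, and the same numbers in the combination, near the 36% and 35.7%, and the 34.1% and 34.4%, of all genes.

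Of the 7 genes for pyruvate entry into mitochondria, 1 was called higher and 0 lower under teriflunomide, against 3.88% and 2.13% of all genes. With lurbinectedin 4 were called lower, among them PDHX, a structural subunit of pyruvate dehydrogenase (-0.76 ± 0.12, adjusted p = 6.89e-05), and 0 higher. Of the 9 genes of the pentose phosphate pathway, the branch that draws on glucose 6-phosphate, 5 were called lower and 1 higher with lurbinectedin. Over all genes 35.7% were called lower and 36% higher there. TKT, its transketolase, fell by 1.22 ± 0.17 (adjusted p = 1.91e-05). Of 16 hypoxia-induced genes outside glycolysis, teriflunomide lowered 3 and raised 0, against 2.13% and 3.88% of all genes, with a median of -0.04 against 0.03. Lurbinectedin raised 7 and lowered 8, against 36% and 35.7%, with a median of -0.19 against 0.05. ADM, which encodes the vasodilator adrenomedullin, rose by 2.37 ± 0.17 (adjusted p = 2.77e-08). HIF1A, the oxygen-regulated subunit of the hypoxia-inducible factor, was not called in any of the 3 comparisons with control, at 0.43 ± 0.19 (adjusted p = 0.183), 0.12 ± 0.19 (adjusted p = 0.591) and 0.35 ± 0.19 (adjusted p = 0.126), and its activity is set mainly at the level of protein. Its teriflunomide libraries measured 229, 221 and 409 CPM against 207 to 221 in control, so replicate 3, of high mitochondrial share, stood far above the others, and without it the estimate was 0.09 (adjusted p = 0.686). Without that library HIF1A was called higher in the combination, at 0.34 (adjusted p = 0.004). ARNT2, a partner of that subunit, fell by 3.41 ± 0.23 with lurbinectedin (adjusted p = 1.42e-08).

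**Figure D5:**
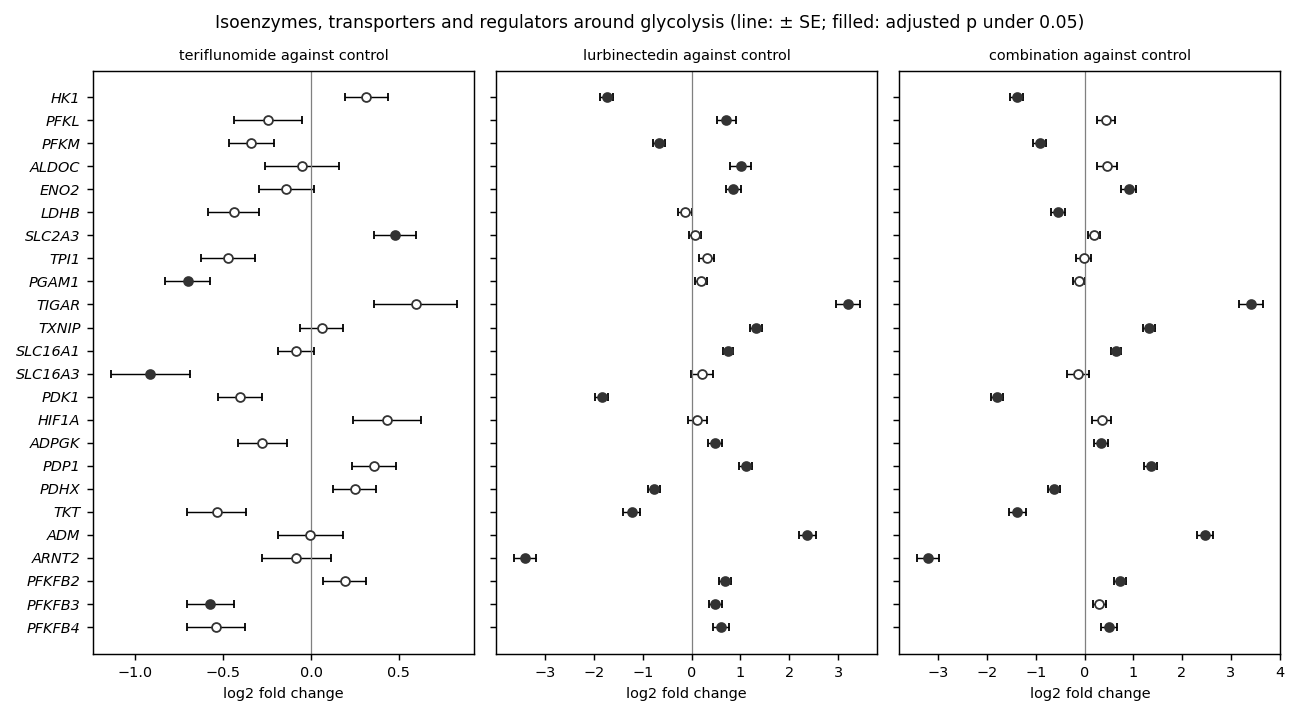
Log2 fold change (points, line ± SE, n = 3 per group) of isoenzymes, transporters and regulators around glycolysis in the 3 comparisons with control; filled points have an adjusted p under 0.05, and the x axes differ between panels. PGAM1, SLC16A3, SLC2A3 and PFKFB3 are the filled points under teriflunomide, and TIGAR at 3.20 and 3.41 is the highest point with lurbinectedin and in the combination.

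Over the 12 libraries, the members did not share 1 pattern. On log2 CPM, Pearson's r was 0.98 between GAPDH and ENO1, 0.97 between SLC2A1 and GAPDH, 0.96 between HK2 and LDHA, and 0.95 between GPI and PGK1. Other pairs were weakly correlated, such as SLC2A1 and HK2 (r = 0.17) or PKM and LDHA (r = 0.0077). ALDOA went the other way from HK2 (r = -0.53). The non-member gene most like each was SAE1 for GPI (r = 0.99), KLF16 for SLC2A1 (r = 0.99) and for GAPDH (r = 0.99), PYCR1 for ENO1 (r = 0.99), PRKCSH for ALDOA (r = 0.99), RPS26 for PKM (r = 0.98), HEATR1 for HK2 (r = 0.98), SORD for PGK1 (r = 0.97), RARG for PFKP (r = 0.97) and ZBTB12 for LDHA (r = 0.97). For each member this r was higher than that with any fellow member, though the non-member gene was picked from many more genes. All these values describe 12 points in 4 groups that share treatment, depth and scaling, and they carry no p-value.

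The order of the 4 groups divided the 10 genes. HK2, GPI and LDHA had the order control, teriflunomide, lurbinectedin, combination from highest to lowest, with control above teriflunomide by the test in each. Lurbinectedin and combination, their neighbours at the low end, did not differ by the test (adjusted p from 0.187 to 0.315), and teriflunomide and lurbinectedin, which were not tested against each other, overlapped for GPI and LDHA. PFKP had control above teriflunomide by the test and then no called difference between neighbours, and PGK1 had control above lurbinectedin and teriflunomide above the combination by the test. The place of teriflunomide below lurbinectedin for PGK1 came from teriflunomide replicate 3, at 328 CPM. Replicates 1 and 2, at 428 and 443 CPM, were above the lurbinectedin libraries (386 to 422 CPM), and this pair of groups was not tested. SLC2A1 and GAPDH had control highest and teriflunomide lowest, and of the differences between neighbours in that order none was called. ALDOA, PKM and ENO1 were highest with lurbinectedin and lowest with teriflunomide. For ALDOA the combination was above control by the test, while for PKM and ENO1 no neighbours differed by the test.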

How the data were processed

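Polyadenylated RNA of 12 SBC3 libraries was analysed. Raw read counts per gene were deposited by the authors, 1 table per library in the layout of featureCounts, per the file headers. The submitters' processing notes name fastp 0.23.2, STAR 2.7.9, featureCounts of Subread and hg38. The annotation release, use of strand and treatment of multi-mapping reads are not given in the sources used here, so counts of overlapping genes are uncertain.

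The test for differential expression was the robust quasi-likelihood fit of edgeR 4.0.16 (R 4.3.3), run on the genes that filterByExpr kept and on TMM-scaled libraries. A single fit held all 12 libraries and gave each group its own mean. The 6 contrasts were each adjusted by Benjamini-Hochberg over 16683 genes and called under 0.05. The fit was tested on simulated data. CPM are counts divided by the effective library size of TMM. For isoenzyme shares the test was an exact permutation over libraries, two-sided, and correlations used log2 CPM with a prior count of 2. Libraries of a group differed by more than sampling noise (lowest chi-square per degree of freedom 3.78), so none was counted as a duplicate.

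Alternatives were DESeq2 1.42.0 and its size factors, library size only, mitochondrial genes left out, no filter, a filter at 1 CPM in 3 libraries, a replicate block, only the groups compared, a TREAT test against 1.5-fold, each library left out, and both libraries of high mitochondrial share left out. The genes, lists and tests were chosen with earlier results of these data known. Named genes are the 10 members, the isoenzymes used in the shares, TPI1, PGAM1, TIGAR, TXNIP, SLC16A1, SLC16A3, PDK1 and HIF1A whatever their values, 1 further gene per list (at most 4 were allowed) with the smallest adjusted p against control, and the gene nearest in pattern to each member. PFKFB2, PFKFB3 and PFKFB4 were added after their values were seen. SLC2A13 met this rule but was under 1 CPM with lurbinectedin and in the combination and is not shown. The value of 1 marker gene is not reported here.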

Additional observations from a re-analysis of the deposited data

How the results depend on the processing

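The direction of all 10 members under teriflunomide and of the 5 genes called lower with lurbinectedin and in the combination was the same in every alternative run. With 3 libraries per group, differences such as that of PKM with lurbinectedin (0.24) were near the limit of the test.

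With 1 library left out, the members called ranged from 2 to 8 under teriflunomide (6 with all libraries; all genes 216 to 1555), from 6 to 7 with lurbinectedin (11118 to 13175), from 6 to 9 in the combination (10559 to 12786), from 0 to 6 for the combination against lurbinectedin (0 to 2067, highest without teriflunomide replicate 3), from 5 to 8 against teriflunomide (11404 to 12497), and from 0 to 2 for the interaction (2 to 616). Under teriflunomide, against 6 members and 1002 genes, library size only called 2 and 265, the fit of only the groups compared 2 and 283, and the TREAT test 0 and 33. No filter called 1800 genes, DESeq2 1890, and the fit without both libraries of high mitochondrial share 2757. The TREAT test called 3 members and 8028 genes with lurbinectedin, 7267 genes in the combination, and 1 member and 7854 genes for the combination against teriflunomide. In that last contrast the fit of only the groups compared called 3 members and 9996 genes. For the combination against lurbinectedin, against 0 and 0, DESeq2 called 2 members and 584 genes, the fit without both libraries 7 and 3640, no filter 612 genes and only the groups compared 94. For the interaction, against 0 and 43, DESeq2 called 2 and 256, the fit without both libraries 3 and 1839, library size only 6 genes, no filter 195 and TREAT 1. The cause of these changes was not tested.

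No pairing of samples by replicate number was seen: 1 of 18 pairs of libraries with the same number had a correlation of deviations over 0.1 (range -0.40 to 0.14). Teriflunomide replicate 2 and combination replicate 3, of different number, reached 0.36. A batch shared by number was not tested. With the replicate block, 2 members (HK2 and LDHA) and 415 genes were called under teriflunomide, and 8 genes for the interaction. The PKM call with lurbinectedin was also lost (adjusted p = 0.0702).

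Each log2 estimate whose sign turned was not called with all libraries, and most were under 0.1 in size, with PFKL under teriflunomide (-0.25) and ENO1 for the interaction (0.17) among the exceptions. With library size only, lurbinectedin against control gave -0.18 for ENO1, -0.15 for SLC2A3, -0.049 for PGAM1, -0.029 for SLC16A3 and -0.11 for HIF1A, teriflunomide gave -0.0051 for TXNIP, and the combination gave -0.15 for PKM. With no filter ENO1 stood at -0.015 with lurbinectedin and PKM at -0.033 in the combination, and with the filter at 1 CPM TPI1 stood at 0.035 there. Without both libraries of high mitochondrial share, teriflunomide gave 0.0054 for PFKL, 0.060 for ALDOC and 0.072 for ARNT2, the combination gave -0.080 for PKM, and the interaction gave -0.047 for PGK1, -0.016 for ENO1 and -0.031 for PKM. With 1 library left out, estimates under teriflunomide ranged from -0.41 to 0.0044 for PFKL, -0.23 to 0.17 for ALDOC, -0.0065 to 0.16 for TXNIP, -0.085 to 0.10 for ADM and -0.18 to 0.071 for ARNT2. With lurbinectedin they ranged from -0.018 to 0.11 for ENO1 and -0.0099 to 0.13 for SLC2A3, and in the combination from -0.078 to 0.090 for PKM and -0.049 to 0.026 for TPI1. For the combination against lurbinectedin they ranged from -0.036 to 0.17 for PFKP and -0.21 to 0.0081 for ALDOA, against teriflunomide from -0.20 to 0.053 for PFKP, and for the interaction from -0.043 to 0.15 for PGK1 and -0.019 to 0.31 for ENO1. The ALDOA share in the combination minus control ranged from -0.67 to 1.89 points, and the LDHA share in the combination minus lurbinectedin from -0.027 to 2.01 points.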
